A study of Homo sapiens with 8 samples.

Results

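The 10 genes followed here encode translation factors and other proteins not counted among the ribosomal proteins and have mRNAs of the 5′ terminal oligopyrimidine (TOP) class. They are EEF1A1, EEF2, EEF1B2, EEF1D, EEF1G, TPT1, NPM1, PABPC1, RACK1 and NAP1L1. They were taken from a fixed list of 10 names and matched to the rows of a short-read gene table and a long-read transcript table through GENCODE 44 on hg38. A row with an Ensembl identifier was matched by that identifier, and an assembled row was named for the same-strand gene whose span it overlapped best, if the Jaccard index (shared length over joint length) reached 0.5. By this rule 7 of the 10 genes had a row in the short-read table, of 26066 genes tested there. EEF1A1, EEF1G and NPM1 did not, since the assembled rows over them had Jaccard indices of 0.222, 0.452 and 0.310. Their values are given from the row on the same strand that overlaps their exons, and apart from the counts over the 7 matched genes. All 10 were named in the long-read table.

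HAP1 is a near-haploid human leukemia cell line that carries the BCR-ABL1 fusion. All libraries came from untreated HAP1 cells, whose nuclei were extracted with urea and detergent and spun into a pellet, the chromatin fraction, and a supernatant, the nucleoplasm fraction. There were 3 chromatin and 3 nucleoplasm short-read libraries, from 3 cultures, and 2 long-read libraries of chromatin RNA, and each fraction was read from its sample title because another label names chromatin for all 8. Cytoplasmic RNA was not measured. These are bulk libraries, so fewer cells holding a transcript and less of it per cell cannot be told apart.

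TOP mRNAs begin with a C at the cap followed by an unbroken run of pyrimidines. They encode ribosomal proteins and much of the translation machinery, are among the most abundant mRNAs of dividing cells, and move between active and stored states with mTORC1 signalling, in part through the protein LARP1, which binds the cap and the tract. The elongation factors among them bring aminoacyl-tRNA to the ribosome (EEF1A1), recharge EEF1A1 with GTP (EEF1B2, EEF1D and EEF1G) and move the ribosome along the mRNA (EEF2).

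The start sequences are shown because the motif defines the group. RefSeq start sites (GRCh38.p14) were found for 8 of the 10 genes, all but EEF1D and PABPC1. Each line gives the 10 bases before the annotated start and the first 20 bases of the transcript, 5′ to 3′ on the gene's strand. Capitals mark the pyrimidine run from its C nearest to the start, where that C is followed by at least 4 pyrimidines and lies within 10 bases of the start.
EEF1A1, chr6:73521013-73521042, minus strand: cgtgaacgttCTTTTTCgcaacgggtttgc
EEF2, chr19:3985444-3985473, minus strand: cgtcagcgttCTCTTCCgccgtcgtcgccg
EEF1B2, chr2:206159885-206159914, plus strand: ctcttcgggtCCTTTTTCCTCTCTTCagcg
EEF1G, chr11:62573872-62573901, minus strand: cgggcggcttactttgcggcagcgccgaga
TPT1, chr13:45341164-45341193, minus strand: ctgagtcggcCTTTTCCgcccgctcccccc
NPM1, chr5:171387839-171387868, plus strand: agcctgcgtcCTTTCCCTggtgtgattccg
RACK1, chr5:181243887-181243916, minus strand: gcttttctctCTCTCTTTCactgcaaggcg
NAP1L1, chr12:76084666-76084695, minus strand: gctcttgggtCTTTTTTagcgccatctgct
In 7 of the 8 genes a tract began exactly at an annotated start. EEF1G was the exception, with no such run within 10 bases. The tracts were 7 to 9 bases long except in EEF1B2, where the run held 16. EEF1B2 and NPM1 each have another RefSeq start, which was without a tract in EEF1B2 and had one of 5 bases in NPM1, 6 bases before the start. Over all 27305 gene symbols in the RefSeq table, 5.14% had a tract at a start itself and 38.4% had one within 10 bases. The motif searched was C followed by at least 4 letters that are C or T, on the strand of the gene, and a match is a description of the letters only.

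The short-read values are counts per gene divided by a size factor for each library. Every nonzero value was a whole multiple of the smallest value of its library. This gave estimates of 38895027 to 43804918 reads per chromatin library and 75737601 to 79523938 per nucleoplasm library. At least 1700 such estimated reads stood behind each value of the 7 genes. The fraction labels were checked with 4 marker genes. Nuclear-retained MALAT1 and NEAT1 were higher in chromatin by 3.09 and 2.40 on the log2 scale, and GAPDH and B2M, which encode exported mRNAs, were lower there, at -2.35 and -2.11. BCR and ABL1 were detected, with means of 739 and 925 normalized counts in chromatin. Of the blood cell genes PTPRC, SPI1, GATA1, CD33 and CD34, the first 3 had no count in any library and none reached the level for testing.

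The comparison of the fractions asks how each RNA's level among the RNAs of the chromatin fraction compares with that in nucleoplasm. Such relative levels do not give the proportion of an RNA that stays with chromatin. Of the 7 matched genes, 6 were higher in nucleoplasm and NAP1L1 was slightly higher in chromatin. The test was limma on log2(normalized count + 1) over all tested genes with Benjamini-Hochberg adjustment, and fold changes are chromatin minus nucleoplasm on that log2 scale. Over all 26066 tested genes, 45.2% were higher in nucleoplasm at an adjusted p under 0.05, and 57.5% of the protein-coding ones. Past a change of 4-fold as well, the count was 4 of the 7 genes (EEF1B2, EEF1D, EEF2 and TPT1), against 8.47% of all tested genes and 5.72% of the 12493 protein-coding ones. The median log2 fold change of the 7 genes was -2.02, beside -0.02 over all tested genes and -0.39 over protein-coding genes. With the 3 overlapping rows added, 7 of 10 were past 4-fold and the median was -2.09.

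Both translocation and tRNA delivery factors were far more abundant in nucleoplasm. EEF2 (chr19:3976056-3985463, minus strand), the factor that moves the ribosome by one codon, had 45457, 39463 and 47338 normalized counts in the 3 chromatin libraries and 188597, 189681 and 192341 in the 3 nucleoplasm libraries. The lowest nucleoplasm value was far above the highest chromatin value. EEF2 was 4.33-fold higher in nucleoplasm, a difference of -2.11 ± 0.075 on the log2 scale (SE, n = 3 per fraction; adjusted p = 2.75e-08 by limma). Its value was below that of all but 4.23% of protein-coding genes.

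EEF1A1, which carries aminoacyl-tRNA to the ribosome, was read from a row at chr6:73515750-73523797 on the minus strand. That row held 61731, 52467 and 66422 normalized counts in chromatin and 307165, 306325 and 319362 in nucleoplasm, the highest counts of the 10 genes in both fractions. The groups did not overlap, and the difference was -2.38 ± 0.090 on the log2 scale (SE; adjusted p = 3.62e-08 by limma). GENCODE 44 gives EEF1A1 a span of 36.3 kb, of which this row covers 8.05 kb. Within the annotated span, beyond the 3′ end of that row, a separate unnamed row on the same strand (chr6:73509510-73513126) went the other way, with 287 ± 59.1 counts in the chromatin libraries and 13.5 ± 5.78 in those of nucleoplasm (SD, n = 3), a difference of 4.37 ± 0.296 on the log2 scale (SE; adjusted p = 1.10e-06 by limma).

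The 3 subunits of the EEF1A1 exchange complex were also low in chromatin. EEF1B2 (chr2:206159585-206162928, plus strand), the catalytic subunit that reloads EEF1A1 with GTP, had 2369, 2042 and 2490 normalized counts in chromatin and 11954, 12014 and 12473 in nucleoplasm. It had the most negative fold change of the 7 matched genes, -2.41 ± 0.073 (SE; limma adjusted p = 1.55e-08), a 5.30-fold higher level in nucleoplasm. EEF1D (chr8:143579697-143599541, minus strand), the other exchange subunit, had 2791, 2522 and 2812 counts in chromatin and 11904, 11933 and 12424 in nucleoplasm. The difference was -2.16 ± 0.054 on the log2 scale (SE; adjusted p = 1.03e-08 by limma). In both genes the fractions did not overlap, and their counts in nucleoplasm were nearly equal.

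EEF1G, the scaffold subunit of that complex, was read from a row at chr11:62559596-62591637 that also spans TUT1 and an annotated readthrough gene, so its counts may include theirs. The row had 17859, 14636 and 18235 counts in chromatin and 96201, 95619 and 98283 in nucleoplasm, and its difference of -2.52 ± 0.084 on the log2 scale (SE; adjusted p = 2.13e-08 by limma) was the most negative of the 10. EEF1G is also the gene whose RefSeq start, shown above, lacks the tract.

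RACK1 and PABPC1 had smaller differences. RACK1 (chr5:181236897-181248096, minus strand), a protein of the small ribosomal subunit that serves as a docking site for signalling proteins, had 15134, 13338 and 15132 counts in chromatin and 42158, 41401 and 42629 in nucleoplasm. The difference was -1.54 ± 0.060 on the log2 scale (SE; adjusted p = 4.20e-08 by limma), a 2.90-fold higher level in nucleoplasm. PABPC1 (chr8:100685816-100722809, minus strand), the main cytoplasmic poly(A)-binding protein, had 16570, 15108 and 16979 counts in chromatin and 36985, 38775 and 38650 in nucleoplasm. The difference was -1.23 ± 0.057 on the log2 scale (SE; adjusted p = 1.02e-07 by limma). Both were called but stayed inside 4-fold, and 21.6% of protein-coding genes had a more negative value than PABPC1.

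Of the other proteins, TPT1 and NPM1 lay near the 4-fold line and NAP1L1 stood apart. TPT1 (chr13:45333471-45341284, minus strand), the translationally controlled tumour protein, had 12646, 10589 and 14932 counts in chromatin and 51582, 49237 and 52362 in nucleoplasm. Its log2 fold change was -2.02 with a 95% interval from -2.27 to -1.76 (limma adjusted p = 2.83e-07), so the interval held the 4-fold line. It lay inside 4-fold with edgeR (-1.98), with DESeq2 (-1.91) and without chromatin replicate 2 (-1.89). The chromatin libraries of TPT1 were more spread than its nucleoplasm libraries, with SDs of 2173 and 1626 around means of 12722 and 51060. NPM1, the nucleolar phosphoprotein nucleophosmin, was read from a row at chr5:171387116-171466658 that also spans FGF18. That row had 15742, 13819 and 16518 counts in chromatin and 63797, 63170 and 65619 in nucleoplasm, a difference of -2.07 ± 0.070 on the log2 scale (SE; adjusted p = 2.22e-08 by limma).

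NAP1L1 (gene at chr12:76036585-76084735, minus strand), a histone chaperone that assembles nucleosomes, had 25115, 27229 and 24835 counts in chromatin and 23575, 22699 and 22361 in nucleoplasm. The fractions did not overlap, but they lay close together. The difference was 0.17 ± 0.053 on the log2 scale (SE; adjusted p = 0.0153 by limma), a 1.12-fold higher level in chromatin, where 44.2% of all tested genes were called. Without nucleoplasm replicate 2 the adjusted p was 0.0552 and without nucleoplasm replicate 3 it was 0.0653, and with the libraries scaled to the same ERCC total the direction turned, to -1.16. Of protein-coding genes, 69.0% had a more negative value than NAP1L1. The row matched to NAP1L1 spans 67.7 kb and the annotated gene 48.2 kb, so its counts may include reads from outside the annotated gene.

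**Figure D1:**
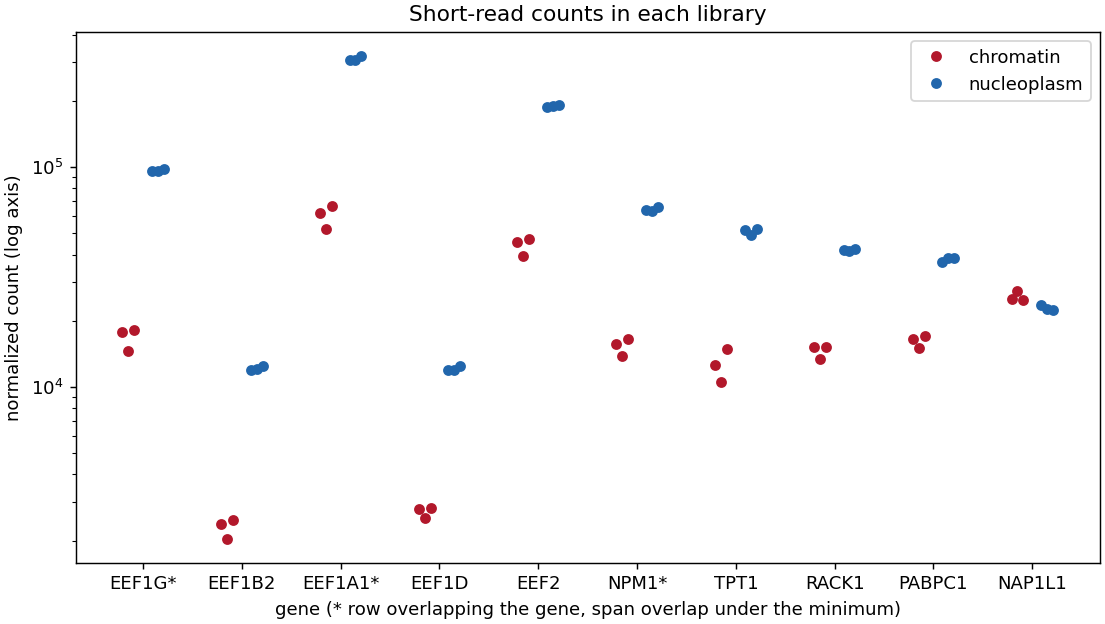
Normalized short-read counts (log axis) of the 10 genes, with 1 point per library, 3 for chromatin in red and 3 for nucleoplasm in blue, and genes ordered by fold change. In 9 genes every nucleoplasm point lies above every chromatin point, and in NAP1L1 the order is turned, with chromatin from 24835 to 27229 and nucleoplasm from 22361 to 23575.

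In the plot of counts, each nucleoplasm library lay above each chromatin library in 6 of the 7 matched genes, an order found in 46.0% of all tested genes. In order of fold change the 7 genes ran EEF1B2, EEF1D, EEF2, TPT1, RACK1, PABPC1 and NAP1L1. EEF1D and EEF2, and EEF2 and TPT1, did not differ from each other by more than 2 SE of the difference. EEF1B2 lay 0.25 ± 0.091 below EEF1D, RACK1 lay 0.48 ± 0.13 above TPT1, PABPC1 lay 0.30 ± 0.083 above RACK1, and NAP1L1 lay 1.40 ± 0.078 above PABPC1 (log2 difference ± SE of the difference).

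**Figure D2:**
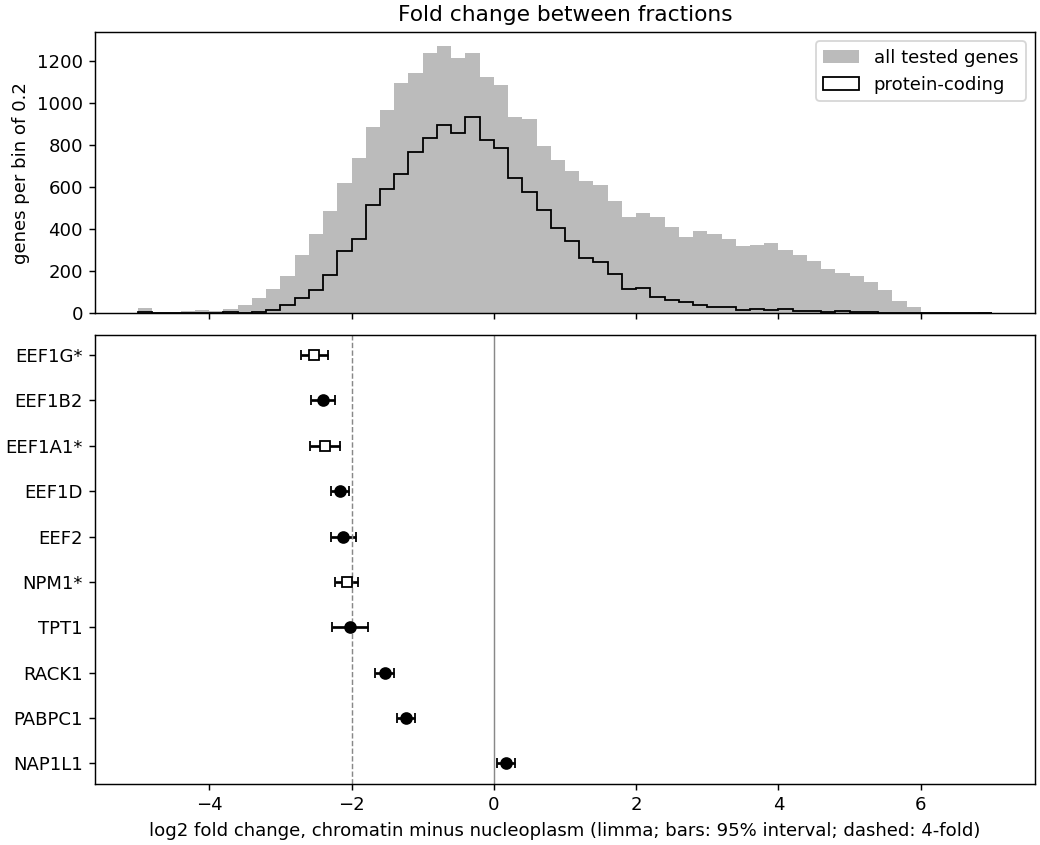
Log2 fold change between fractions (chromatin minus nucleoplasm). The upper panel counts all 26066 tested genes (grey) and the 12493 protein-coding ones (line) in bins, with values beyond the axis placed in the end bins, and the lower panel gives each gene with its 95% interval, filled for the 7 matched rows and open for the 3 overlapping rows. All but NAP1L1 lie left of 0, and PABPC1 (-1.23) and RACK1 (-1.54) lie right of the dashed 4-fold line.

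Fold changes depended on how the libraries were set to a common scale, as the plot of the scalings shows. With the libraries set to the same total of reads, the median over all tested genes moved from -0.02 to 0.44, and none of the 7 genes remained past 4-fold, with EEF1B2 the closest at -1.94. With the same total of ERCC standards, which were added to each fraction in equal volume, the median over all tested genes was -1.33, all 7 values were negative and 6 genes were past 4-fold. Under that scaling 16893 of the 26066 tested genes were called higher in nucleoplasm, and 8994 were also past 4-fold, so the shift was not particular to the 7 genes. The ERCC standards summed to 94580 to 122151 normalized counts in chromatin and 37409 to 49777 in nucleoplasm. The order of the 7 genes was the same under each of these scalings, because a scaling moves all genes by nearly the same amount.

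**Figure D3:**
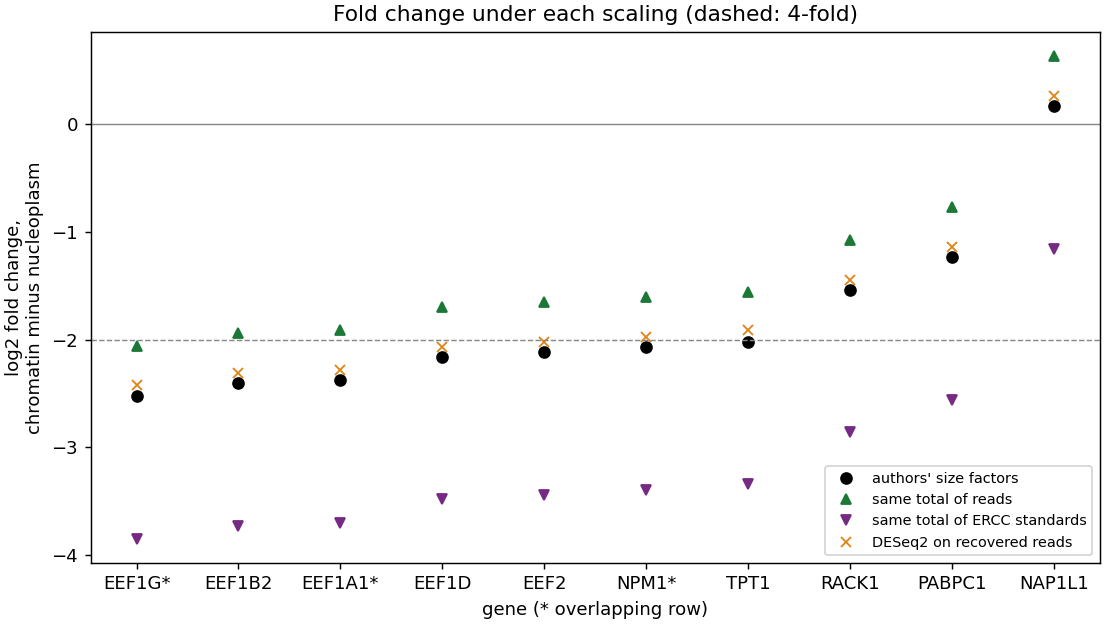
Log2 fold change (chromatin minus nucleoplasm) of the 10 genes under the authors' size factors, the same total of reads, the same total of ERCC standards, and DESeq2 on the recovered reads. The genes shift together, and NAP1L1 goes from 0.63 with the same total to -1.16 with the same ERCC total while EEF1B2 goes from -1.94 to -3.73.

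As a share of all gene reads, which needs no size factor, the 7 genes held 0.240%, 0.237% and 0.259% of the chromatin libraries and 0.552%, 0.556% and 0.556% of the nucleoplasm libraries. The share was 2.26 times as large in nucleoplasm, with means of 0.245% ± 0.0123 and 0.555% ± 0.00209 (SD, n = 3 per fraction; exact two-sided permutation test p = 0.1, the smallest that 3 against 3 libraries allow). With the 3 overlapping rows the shares were 0.437% ± 0.0305 in chromatin and 1.26% ± 0.0101 in nucleoplasm.

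Per kilobase of the canonical transcript, EEF2 and RACK1 were the highest of the 7 in both fractions. In nucleoplasm the levels ran from 60230 ± 610 normalized counts per kb for EEF2 and 36897 ± 543 for RACK1, through EEF1B2, PABPC1, TPT1 and EEF1D, to 1739 ± 47.6 for NAP1L1 (SD, n = 3). Each step in that order was larger than 2 SDs. In chromatin, EEF2 at 13960 ± 1302 and RACK1 at 12749 ± 909 did not differ beyond their spread, nor did EEF1B2 at 2847 ± 287 and TPT1 at 2797 ± 478. TPT1 lay above NAP1L1, at 1955 ± 99.5, by 1.76 times the larger SD, which is under 2 SDs. EEF1D was the lowest in chromatin, at 1296 ± 77.4. The canonical transcript of NAP1L1 is 13159 bases long, that of TPT1 4548 bases and that of EEF1B2 808 bases. In the long-read libraries that transcript held 26.3% and 22.4% of NAP1L1 TPM and 39.9% and 56.4% of TPT1 TPM. All protein-coding models together held 1.97% and 56.2% of RACK1 TPM and 49.1% and 0% of EEF1B2 TPM. For EEF2 the canonical transcript held 97.0% and 97.1%, and for PABPC1 94.6% and 95.1%. A level per kb, and so this order of genes, depends on which transcript is taken.

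Gene span and fold change followed each other only in part. NAP1L1 (48.2 kb) and PABPC1 (37.0 kb) had the longest spans of the 7 and the least negative values, and EEF1B2 (3.34 kb) had the shortest span and the most negative value. EEF1D, at 19.8 kb, was more negative than TPT1 at 7.81 kb, EEF2 at 9.41 kb and RACK1 at 11.2 kb. Among the overlapping rows, EEF1A1 was at -2.38 with an annotated span of 36.3 kb. Spearman's rho between gene span and log2 fold change was 0.75 over the 7 genes, 0.44 over all 10, and 0.23 over 12493 protein-coding genes. These are descriptions across genes that share the same 6 libraries, and the relation was looked at after the values were seen. Among protein-coding genes of 40 to 60 kb, as NAP1L1 is, the median log2 fold change was -0.38, and among those under 5 kb, as EEF1B2 is, it was -0.95.

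Several of these genes have many processed pseudogenes, intronless copies of their mRNA elsewhere in the genome, and reads of 50 bases cannot always be assigned between them. Of all windows of 50 bases along the canonical transcript, the share also found in a pseudogene transcript was 66.3% in EEF1G, 62.2% in EEF1B2, 51.6% in NPM1 and 36.6% in EEF1A1. It was 5.87% in PABPC1, 5.29% in EEF1D, 1.44% in TPT1 and 1.18% in NAP1L1, and no window of EEF2 or RACK1 was shared.

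The rows of named pseudogenes held a large part of the counts for EEF1A1. Its 45 pseudogene rows summed to 61551 ± 7170 normalized counts in the chromatin libraries and 351031 ± 8465 in those of nucleoplasm (SD, n = 3), which was 50.6% and 53.0% of the sum of gene and copies. The leading copy, EEF1A1P5 (chr9:133019486-133020874), had 19128 ± 2278 counts in chromatin and 108372 ± 2738 in nucleoplasm, a difference of -2.51 ± 0.086 on the log2 scale (SE; adjusted p = 2.33e-08 by limma). Of the 22 EEF1A1 copies tested, 21 were higher in nucleoplasm and 1 in chromatin, and whether these counts came from transcripts of the copies or of EEF1A1 was not tested.

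For EEF1B2 the 8 copies held 25.9% of the family's counts in chromatin and 32.3% in nucleoplasm, led by EEF1B2P3 with 415 ± 52.2 and 2838 ± 74.4 counts. For NPM1 the 43 pseudogene rows held 15.8% and 18.9%, led by NPM1P27 with 1108 ± 163 and 6505 ± 210 counts. EEF1D and TPT1 copies held under 5% in each fraction, led by EEF1DP1 (77.3 ± 11.9 and 372 ± 11.9) and TPT1P9 (134 ± 24.6 and 1143 ± 27.3). Copies of EEF1G, PABPC1 and NAP1L1 named by the gene symbol, P and a number held under 2.5%, led by EEF1GP5, PABPC1P4 and NAP1L1P1. EEF2 has no copy of that name pattern. Pseudogenes without such a name were left out of these sums. One was ENSG00000283041, which shares 66% of the EEF1G windows. Another was ENSG00000250568, which shares 2.45% of the PABPC1 windows. It had 211, 184 and 225 counts in chromatin and 403, 412 and 393 in nucleoplasm, more than PABPC1P4. RACK1P1 was the leading copy that went the other way, with 38.2 ± 10.2 counts in chromatin and 2.03 ± 1.36 in nucleoplasm (log2 fold change 3.76 ± 0.374, SE; limma adjusted p = 1.48e-05). NAP1L1P1 was higher in nucleoplasm by a difference of -1.48 ± 0.076 on the log2 scale (SE; adjusted p = 1.95e-07 by limma), unlike NAP1L1. Adding the copies to their genes moved EEF1B2 to -2.54, EEF1A1 to -2.45, NPM1 to -2.12 and TPT1 to -2.05, and left the calls of the 7 genes as they were.

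**Figure D4:**
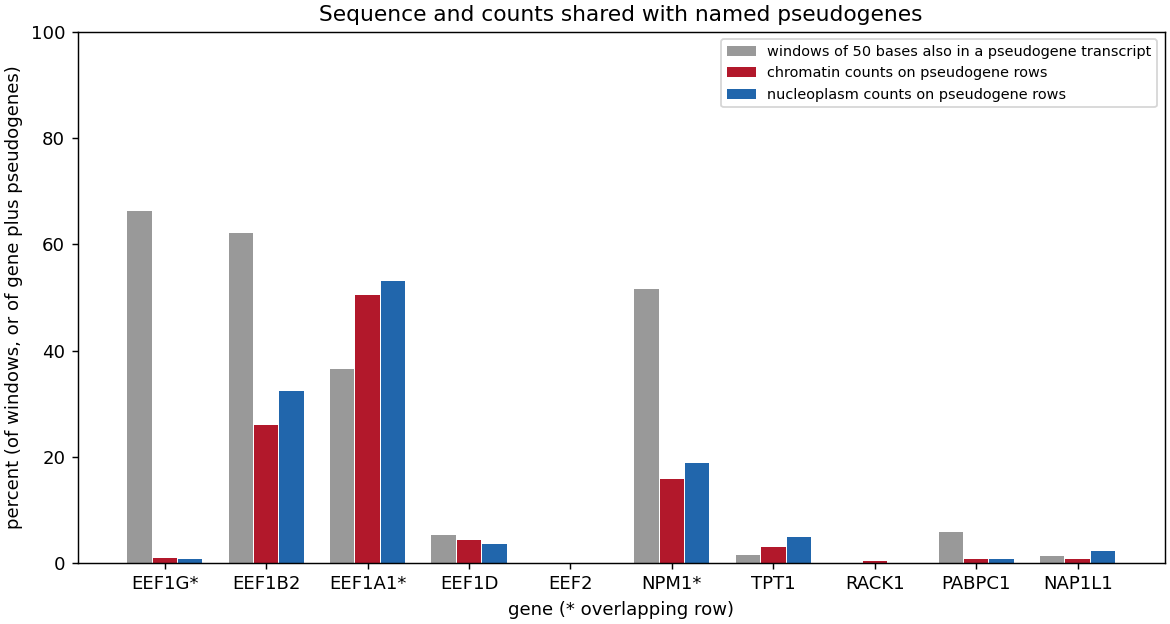
For each gene, the percent of 50-base windows of the canonical transcript that also occur in a pseudogene transcript (grey), and the percent of the counts of gene plus named pseudogenes that sit on pseudogene rows in chromatin (red) and nucleoplasm (blue), as means of 3 libraries. EEF1G shares 66.3% of its windows, 66% with the pseudogene ENSG00000283041, which is not among the named copies counted. Its named copies hold under 1% of the counts, while the EEF1A1 copies hold over 50% in both fractions.

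The other TOP mRNAs on the list, those of EEF1A2, EIF3A, EIF3E, EIF3F, EIF3H, EIF4B, HNRNPA1 and VIM, were compared in the same way. Of these 8 genes, 7 were higher in nucleoplasm, none in chromatin, and 2 were past 4-fold, with a median log2 fold change of -1.68. EIF3H, a subunit of the initiation factor eIF3, was at -2.25 and EEF1A2, the form of EEF1A1 known from brain and muscle, at -2.13. At the other end EIF3F was at -1.32 and EIF3A, the largest eIF3 subunit, at 0.05 (limma adjusted p = 0.498). Of 61 ribosomal protein genes tested, 60 were higher in nucleoplasm and 41 past 4-fold, with a median of -2.34.

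Initiation factor genes without a place on the TOP lists went in both directions. Of 30 tested, 23 were higher in nucleoplasm, 6 in chromatin and 1 was not called, with a median of -0.999 and 1 gene past 4-fold. EIF3K (-2.37) and EIF3L (-1.99), both eIF3 subunits, were the most negative. EIF4E2, a cap-binding protein, was at 0.88 and the RNA helicase gene EIF4A2 at 1.16, values that turned to -0.44 and -0.17 with the same ERCC total. EIF4A2 had a wide spread in chromatin, at 59201 ± 12203 counts (SD, n = 3).

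Of 8 further elongation and termination genes tested, all were higher in nucleoplasm, with a median of -1.24. EIF5A, the factor that helps ribosomes past difficult peptide bonds, was at -2.998 and was the one past 4-fold, followed by VARS1, the valyl-tRNA synthetase that binds the exchange complex, at -1.85. EEF2K, the kinase that inactivates EEF2, was at -0.83 and the ribosome rescue gene HBS1L at -0.81.

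Of 15 tested genes that act on TOP mRNAs or in the mTORC1 pathway, 11 were higher in nucleoplasm, 3 in chromatin and 1 was not called, with a median of -0.42 that turned to 0.04 with the same total of reads. CNBP, a nucleic acid-binding protein, was at -2.27 and the translation repressor gene EIF4EBP1 at -1.22. TIAL1, an RNA-binding protein of stress granules, was at 0.73 and RHEB, the activator of mTORC1, at 0.87, and both turned negative with the same ERCC total (-0.59 and -0.45). LARP1 was at -0.55 and MTOR at -0.31, and with the same total of reads MTOR (0.16), EIF4EBP2 (0.04), RPTOR (0.08) and LARP1B (0.29) turned positive while LARP1 was at -0.09.

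Of 9 tested paralogs and binding partners of the 10 genes, 7 were higher in nucleoplasm and 2 in chromatin, with a median of -0.94. NPM3 (-2.70) and PAIP2 (-2.18), which binds and restrains PABPC1, were the most negative. NAP1L4, a close paralog of NAP1L1, was at 0.39 and turned to -0.93 with the same ERCC total. PABPC1L was at 2.43, with 2955 ± 359 counts in the chromatin libraries and 544 ± 45.2 in those of nucleoplasm (SD, n = 3), and stayed positive at 1.11 with the same ERCC total.

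The protein-coding genes most like the 7 in profile were found by the Euclidean distance between centred log2 values in the 6 short-read libraries, taken to the median profile of the 7 genes. They were CCNG1 (distance 0.0726), NDUFAF1 (0.0982), EMC4 (0.105), WSB2 (0.107) and ATP5MC1 (0.110), with log2 fold changes from -2.02 to -1.92. Of 12424 genes compared, 1120 lay within a distance of 0.5.

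Small nucleolar RNAs (snoRNAs), which guide RNA modification and are cut from introns, are annotated inside 4 of the genes. There were 8 in all. EEF2 holds SNORD37, EEF1B2 holds snoZ196, SNORD51 and SNORA41, TPT1 holds SNORA31 and SNORA31B, and RACK1 holds SNORD95 and SNORD96A. None had a short-read row of its own. In the long-read table SNORA31 had 16.6 and 3.94 TPM (transcript abundance scaled to the same library total), and the other 7 had at most 0.101 TPM. An EEF1B2 transcript annotated by GENCODE from the 5′ end of SNORA41 (chr2:206162228-206162928) had 17.6 and 77.2 TPM. An EEF2 transcript annotated from that of SNORD37 (chr19:3980940-3982572) had 1.67 and 3.11 TPM. These starts are coordinates of the annotation, and whether reads began there was not tested.

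Long reads were made from chromatin RNA, with an enzymatic poly(A) tail, so they do not compare the fractions. The 10 genes summed to 3159 and 2897 TPM in the 2 libraries, or 0.316% and 0.290% of each library's TPM. EEF1A1 had 824 and 495 TPM and EEF1G 532 and 631 TPM, the highest 2, and their order differed between the libraries. NPM1 followed with 341 and 448 TPM. EEF1B2 (288 and 196), RACK1 (263 and 274), EEF2 (237 and 215), PABPC1 (220 and 210) and TPT1 (182 and 166) overlapped or lay close together. EEF1D (138 and 140) and NAP1L1 (132 and 123) were the lowest. Between chromatin counts per kb and mean long-read TPM, Spearman's rho was 0.79 over the 7 matched genes and 0.81 over all 10, as a description across genes.

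The strand of long reads limits these sums. Assembled transcripts on the opposite strand that overlapped a gene's span at a Jaccard index of at least 0.5 held much TPM as well, 780 and 422 at RACK1, 327 and 452 at EEF1G and 225 and 369 at TPT1. Counting either strand raised the mean sum of the 10 genes from 3028 to 5196 TPM. Named pseudogenes of EEF1A1 held 14276 and 12074 TPM, far above EEF1A1 itself, and EEF1A1P5 alone held 3806 and 3823. Pseudogenes of NPM1 (930 and 1456 TPM) and EEF1B2 (485 and 595 TPM) also exceeded their genes, while those of RACK1 and NAP1L1 were at most 2.35 TPM. Whether this TPM came from transcripts of the copies or of their parent genes was not tested.

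Most of the long-read TPM of EEF2, PABPC1 and EEF1G was in a single annotated protein-coding transcript. That transcript held 97.0% and 97.1% of EEF2, 94.6% and 95.1% of PABPC1 and all of EEF1G in the 2 libraries. NAP1L1 was the most divided by the share of its leading transcript, which held 26.3% and 22.4%. It had 37 transcripts, of which 10 were above 0 in both libraries. EEF1D had 55 transcripts, with 8 above 0 in both, and RACK1 had 38, with 9. Models that GENCODE annotates as retained intron held 60.6% and 36.4% of RACK1, 32.8% and 19.6% of TPT1, 23.1% and 12.7% of EEF1A1, 13.3% and 25.6% of NAP1L1, 9.41% and 24.8% of EEF1D, and 6.13% and 39.4% of EEF1B2. For NPM1, PABPC1 and EEF2 this share was 1.03% to 4.16%, and for EEF1G it was 0. The whole EEF1B2 share lay in a single short annotated transcript, the one that starts at the 5′ end of SNORA41. In the retained intron share the 2 libraries differed by up to 33.3 percentage points, in EEF1B2, so the order of the genes with larger shares is not fixed by these data. The share in protein-coding models differed more, at 1.97% and 56.2% in RACK1 and 49.1% and 0% in EEF1B2.

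**Figure D5:**
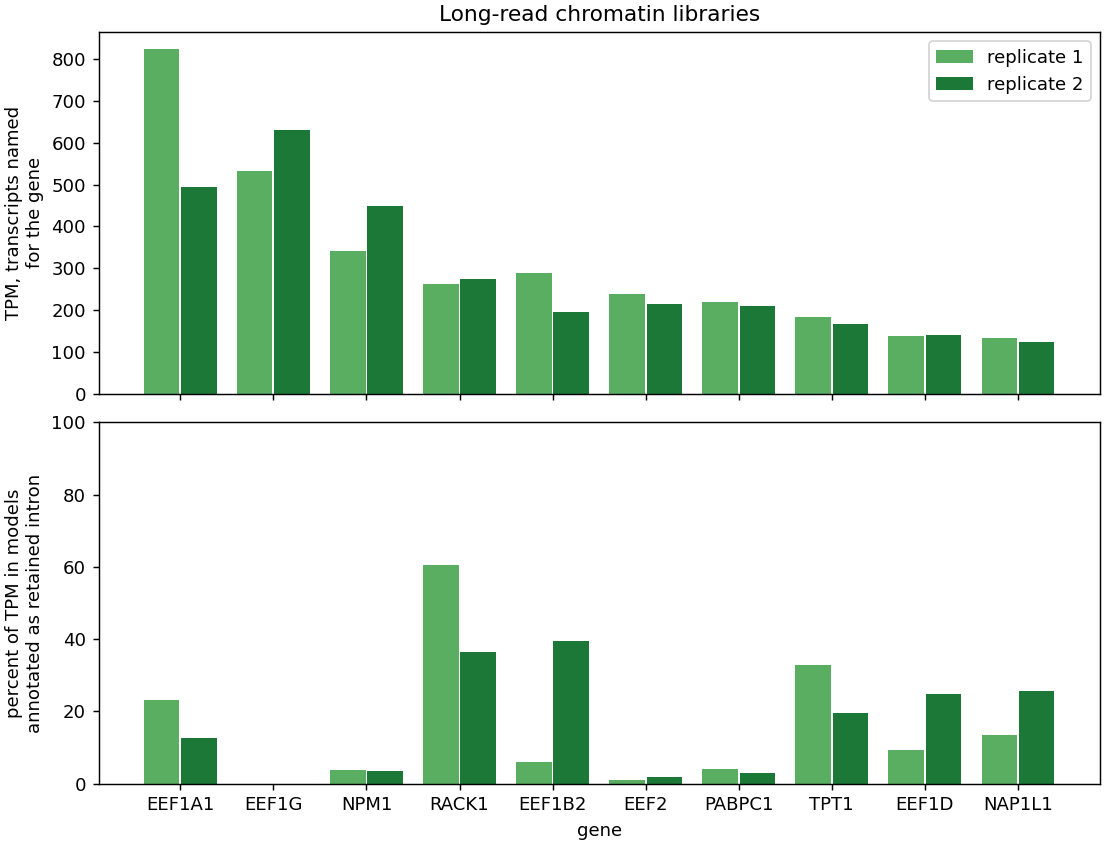
Long-read chromatin libraries, replicates 1 and 2. The upper panel gives the summed TPM of transcripts named for each gene and the lower panel the percent of that TPM in models annotated as retained intron, and EEF1A1 (824 and 495 TPM) and RACK1 (60.6% and 36.4%) show how far the 2 libraries lie apart.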

How the data were processed

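RNA of HAP1 nuclear fractions was measured in 6 short-read and 2 long-read libraries. Per the labels, reads were aligned to hg38 with HISAT2 2.1.0 (short) and minimap2 (long), assembled with StringTie and counted. The short-read values deposited are a normalized signal per gene (counts over a DESeq2 size factor), not per length. The long-read values deposited by the authors are TPM per transcript, which holds no depth, and whether strands had been assigned to those reads is not given in the sources used here. Groups came from the sample titles.

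Values divided by the smallest of each library gave whole numbers for 100% of values (tolerance 0.01), taken here as recovered reads. Because the counts come from assembled coverage, a recovered read and the depth of a library are estimates. Testing was limited to 26066 genes spanning over 200 bases that reached 10 normalized counts in 3 or more libraries, ERCC standards left out. With limma 3.58.1 in R 4.3.3, log2(normalized count + 1) was modelled with a trended variance and no covariates, and a gene was called at an adjusted p under 0.05. Recovered reads tested with DESeq2 1.42.0 or edgeR 4.0.16, different scalings, pseudocounts, filters, left-out libraries, the replicate number as a block, and added rows were alternatives. The scripts were tested on simulated data. Python 3.11.15 with scipy 1.17.1 gave the exact permutation test.

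The 10 genes, the other gene lists and the rules were chosen with earlier results of these data known. Named genes were all 10, the 2 most positive and 2 most negative of each list, the leading pseudogene of each family, rows inside the genes, and the 5 nearest profiles. LARP1, LARP1B, MTOR, RPTOR, EIF4EBP2, ENSG00000250568, ENSG00000283041 and NAP1L1's row extent were named after their values were seen. The overlapping rows of EEF1A1, EEF1G and NPM1 were an added alternative. A list gene with several rows was read from the row with the largest overlap. Counts are bulk and p-values measure the spread between 3 libraries per fraction.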

Additional observations from a re-analysis of the deposited data

How the results depend on the processing

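The count of 6 of 7 genes higher in nucleoplasm at an adjusted p under 0.05 became 7 with the same ERCC total and 9 of 10 with the 3 overlapping rows added, and was 6 under the other alternatives run. The count past 4-fold was 4 and became 0 with the same total of reads and 7 with the 3 overlapping rows added (chosen after seeing the data), and it was 3 with edgeR, with DESeq2 and without chromatin replicate 2, where TPT1 lay inside 4-fold, and 6 with the same ERCC total or a 2-fold minimum. Leaving out 1 library gave 3 to 4. The median log2 fold change of -2.02 was -3.34 with the same ERCC total and -1.55 with the same total of reads, and ran from -2.14 to -1.89 when 1 library was left out. Over all 26066 tested genes, calls in nucleoplasm went from 11775 to 16893 with the same ERCC total and to 8903 with the same total. Those past 4-fold went from 2208 to 8994 and to 999. The share of all genes past the 2-fold minimum was not counted. Of 119 values of single genes under an alternative, 116 kept their direction and their side of the adjusted p of 0.05, which says nothing of the 4-fold line. The exceptions were all NAP1L1, at -1.16 with the same ERCC total, and at 0.16 and 0.15 with adjusted p over 0.05 without nucleoplasm replicate 2 or 3 (limma), and its range over left-out libraries was 0.13 to 0.19. The difference in share of reads, 0.309 percentage points, was 0.827 with the overlapping rows and 0.305 to 0.316 with 1 library left out. The long-read sum of 3028 TPM was 5196 with either strand and 2897 to 3159 from single libraries. The count of 7 genes with a tract was 7 for a tract at the start itself and 8 within 25 bases. Within 25 bases, 61.3% of all 27305 gene symbols had one too. Deviations of libraries with the same replicate number correlated at 0.0871, 0.0533 and 0.0626, and those with different numbers at 0.0128 or less. The fractions came from 3 cultures, so the numbers may pair them. The main fit did not use pairing. With the replicate block the 7 genes had the same calls (4 past 4-fold, median -2.02, NAP1L1 at 0.17) and 2218 genes in all were past 4-fold in nucleoplasm. The causes of these shifts, beyond the construction of each alternative, were not tested. Depth did not limit the short-read counts of the 10 genes, whereas shared sequence limits EEF1A1, EEF1B2, EEF1G and NPM1. Strand limits the long-read sums, and 2 libraries limit the isoform shares. Whether long-read depth limits them was not tested.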

Other observations

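EEF1GP1, a pseudogene of EEF1G, was listed at 100.2, 66.1 and 64.8 normalized counts in the 3 chromatin libraries and at 0, 0 and 423 in the 3 nucleoplasm libraries, so that 1 library alone held its nucleoplasm counts (log2 fold change 3.35 ± 2.06, SE; limma adjusted p = 0.154). It was chosen after its values were seen. Among rows on the opposite strand that overlap the annotated spans, CTC-338M12.4 at RACK1 had 1980 ± 62.7 counts in chromatin and 803 ± 82.4 in nucleoplasm (log2 fold change 1.30 ± 0.075, SE; limma adjusted p = 3.88e-07), TIGD5 at EEF1D had 286 ± 2.74 and 150.0 ± 13.8 (0.93 ± 0.088; 1.03e-05), and MTO1 at EEF1A1 had 2221 ± 85.2 and 2598 ± 60.3 (-0.23 ± 0.048; 0.00179).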
